A study of Mus musculus with 17 samples.

Results

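Expression of 5 genes of the mouse Ly49 receptor family, Klra9, Klra3, Klra13-ps, Klra8 and Klra1, was examined in RNA-seq libraries of CD8 T cells. They were taken by symbol from the count tables, where they are 5 of 24594 genes and 5 of the 14 genes whose symbol starts with Klra, and all 5 passed the filter on low counts that left 13881 genes. There were 4 Asxl1 KO, 4 Dnmt3a KO, 4 Tet2 KO and 5 Rosa KO libraries, named by their genetic modification label, and Rosa KO is the control. All 17 were labelled as CD8 T cells from mouse spleen with the congenic markers CD8+Thy1.1+; no age, strain or treatment is used here. Whether replicates are separate animals or cultures is not stated in the labels, so the p-values cover the spread among these 17 libraries, which may be technical. Asxl1 encodes a subunit of the Polycomb deubiquitinase, Dnmt3a a DNA methyltransferase and Tet2 an enzyme that oxidises methylcytosine.

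Ly49 receptors are C-type lectin-like membrane proteins of mouse natural killer (NK) cells and of some CD8 T cells, encoded side by side in the NK gene complex, and most of them recognise MHC class I molecules. Inhibitory members carry a tyrosine motif that recruits the phosphatase encoded by Ptpn6, whereas activating members signal through the adaptor encoded by Tyrobp. Klra9 encodes Ly49I and Klra3 encodes Ly49C, both inhibitory receptors; Klra1 encodes the inhibitory receptor Ly49A; Klra8 encodes Ly49H, an activating receptor that recognises a glycoprotein of mouse cytomegalovirus; and Klra13-ps is a transcribed pseudogene.

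All 5 genes lie on chromosome 6 of the mouse build GRCm38.p6 (mm10), on the minus strand. Klra8 (NCBI gene 16639) spans chr6:130115226-130129898, Klra9 (16640) chr6:130178626-130194374, Klra13-ps (16631) chr6:130291161-130306432, Klra3 (16634) chr6:130323289-130337626 and Klra1 (16627) chr6:130363918-130386874. A promoter window is shown for each of the 4 members with an entry in the RefSeq table of GRCm38.p6. It covers 250 bases before and 50 after the start of a transcript. These windows are shown because the members differed in how they behaved across the groups, and they show how alike the members are there in sequence. Capitals mark the letters TTTCCTC, of an ETS-type site, and TTGCAAT, of a C/EBP-type site, on either strand, and TGTGGT, of a RUNX-type site; the letters TTGCAAT on both strands overlap by all but their outer base.
Klra9 promoter, chr6:130193063-130193362, minus strand: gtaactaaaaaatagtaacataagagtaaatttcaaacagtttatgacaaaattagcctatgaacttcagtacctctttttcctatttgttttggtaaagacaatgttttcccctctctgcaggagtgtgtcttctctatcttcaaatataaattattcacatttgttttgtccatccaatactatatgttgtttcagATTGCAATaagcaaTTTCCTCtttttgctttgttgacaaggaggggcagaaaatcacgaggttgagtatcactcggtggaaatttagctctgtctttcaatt
Klra3 promoter, chr6:130337577-130337876, minus strand: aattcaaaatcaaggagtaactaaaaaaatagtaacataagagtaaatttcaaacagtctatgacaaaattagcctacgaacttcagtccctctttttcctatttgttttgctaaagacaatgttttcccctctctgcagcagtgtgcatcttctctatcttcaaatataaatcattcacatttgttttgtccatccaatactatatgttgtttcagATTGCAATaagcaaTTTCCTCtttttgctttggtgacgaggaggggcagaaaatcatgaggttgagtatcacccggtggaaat
Klra8 promoter, chr6:130129849-130130148, minus strand: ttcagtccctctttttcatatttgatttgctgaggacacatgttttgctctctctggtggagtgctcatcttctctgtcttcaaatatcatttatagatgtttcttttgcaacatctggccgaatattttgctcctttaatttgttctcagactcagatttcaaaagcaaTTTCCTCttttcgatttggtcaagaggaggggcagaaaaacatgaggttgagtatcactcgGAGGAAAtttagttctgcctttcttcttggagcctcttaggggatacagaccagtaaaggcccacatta
Klra1 promoter, chr6:130386825-130387124, minus strand: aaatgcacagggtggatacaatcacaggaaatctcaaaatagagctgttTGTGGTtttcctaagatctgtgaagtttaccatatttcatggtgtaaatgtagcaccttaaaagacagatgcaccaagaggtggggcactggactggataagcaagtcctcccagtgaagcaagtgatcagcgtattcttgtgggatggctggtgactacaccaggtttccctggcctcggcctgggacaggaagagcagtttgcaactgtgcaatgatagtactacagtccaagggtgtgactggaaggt

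The Klra9 and Klra3 windows matched at 96.4% of 281 aligned bases and the Klra9 and Klra8 windows at 83.6% of 232 bases, while Klra1 aligned with Klra9 over only 51 bases. TTTCCTC began 38 bases before the transcript start in Klra9, 19 bases before it in Klra3 and 80 bases before it in Klra8, where a copy on the other strand began 19 bases before the start. Klra8 has another window, chr6:130129786-130130085, not printed above. In that window the same letters began 143 and, on the other strand, 82 bases before the start. TTGCAAT began 51 bases before the start in Klra9 and 32 bases before it in Klra3. TTTCCTC was found in 10 of the 13 windows of Klra genes in the table and in 9.004% of all 32851 windows, and TTGCAAT in 4 of the 13 windows and 2.22% of all. Both letter strings were chosen after these windows had been read, so the counts are a description only. TGTGGT occurred in 1 of the 4 members, in Klra1, and in 16.8% of all windows. Neither CTTTGA, of a TCF/LEF-type site (16.003% of all windows), nor CACCTG, of a ZEB-type site (20.2%), was in a member's window.

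The transcripts are close paralogs too, and how reads that match several of them were counted is not given in the sources used here. The Klra9 and Klra3 transcripts of GENCODE M21 matched at 96.2% of 1238 aligned bases. Windows of 50 and 100 bases were compared among the Klra transcripts of GENCODE M21. These include Klra4 and Klra11-ps, which have no row in the count tables, but not Klra18 or Klra22, which have one. Of all windows of 50 bases in a transcript, 31.5% in Klra9, 20.7% in Klra3, 13.7% in Klra13-ps, 33.1% in Klra8 and 2.98% in Klra1 occurred unchanged in another Klra gene. Of windows of 100 bases, the shares were 4.07%, 1.78%, 1.86% and 14.4% in the first 4 genes, and 0 in Klra1. Klra9 and Klra3 shared 13.1% of the Klra9 windows of 50 bases, and Klra8 shared 20.4% of its windows with the pseudogene Klra14-ps. Values of Klra9, Klra3, Klra8 and Klra13-ps are therefore uncertain to the extent that such reads were split or dropped.

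**Figure D1:**
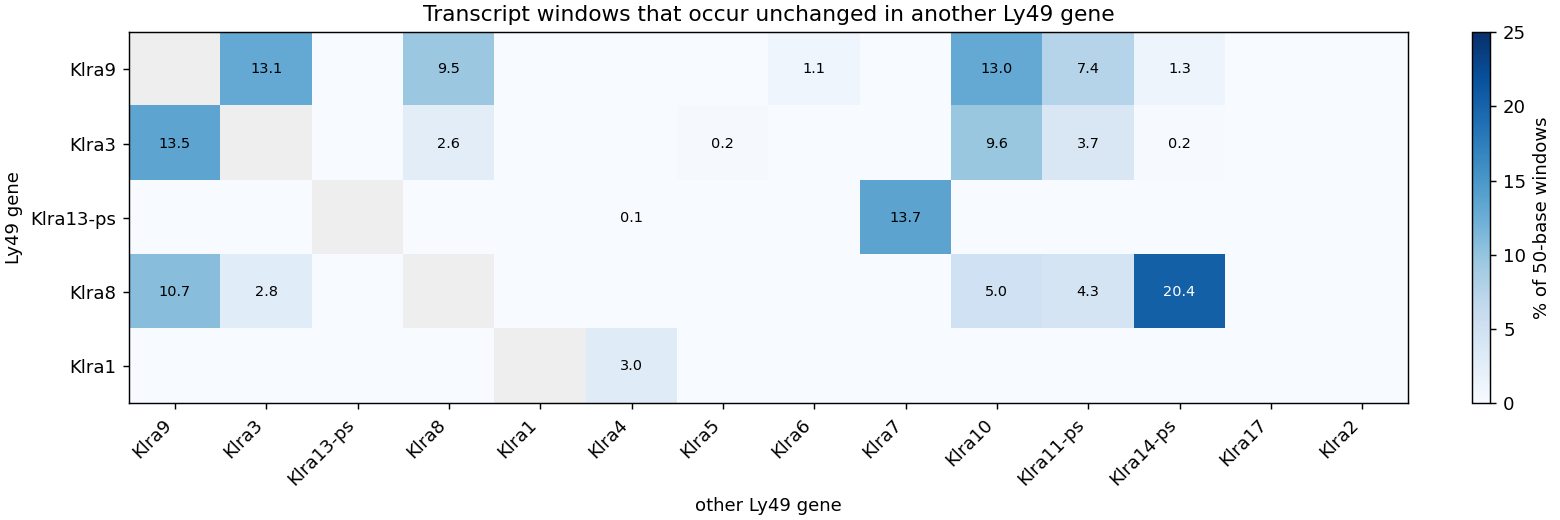
Share of the windows of 50 bases in each Ly49 transcript (rows) that occur unchanged in another Ly49 gene of GENCODE M21 (columns), in percent. Grey marks the gene itself and cells without a number are at 0. Klra18 and Klra22 are not in that set. Klra9 and Klra3 share 13.1% of the Klra9 windows, and Klra8 and Klra14-ps share 20.4% of the Klra8 windows.

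Total counts per library ran from 6625833 to 40701203, with a median of 21642477. The library numbers in the labels fall into 3 separated runs, which the labels do not call batches. Run 1 held Asxl1 KO 1, Dnmt3a KO 1 and 2 and Rosa KO 1; run 2 held Asxl1 KO 2, Dnmt3a KO 3 and 4 and Tet2 KO 1 and 2; run 3 held Asxl1 KO 3 and 4, Tet2 KO 3 and 4 and Rosa KO 2 to 5. Run 2 thus had no Rosa KO and run 3 no Dnmt3a KO. The targeted genes did not pass the test in their own knockouts: mean CPM was 105 for Asxl1 in Asxl1 KO against 103 in Rosa KO, it was 87.7 for Dnmt3a in Dnmt3a KO against 64.8 in Rosa KO, and it was 181 for Tet2 in Tet2 KO against 161 in Rosa KO. RNA of an edited gene can persist, so these counts do not check the labels. All 7 CD8 T cell markers, Cd8a and Thy1 among them, had counts in every library.

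Klra9, the gene of the inhibitory receptor Ly49I, was the highest Ly49 gene in Rosa KO. It had 19.6, 24.9, 37.8 and 48.0 CPM (counts scaled to the library size, with TMM factors) in Asxl1 KO 1 to 4. It had 29.7, 28.6, 11.9 and 8.34 CPM in Dnmt3a KO 1 to 4, and 87.5, 76.0, 79.7 and 55.6 CPM in Tet2 KO 1 to 4. In Rosa KO 1 to 5 it had 111.7, 124.1, 132.1, 148.7 and 117.7 CPM. Every knockout library lay below every Rosa KO library, and every Asxl1 KO and Dnmt3a KO library lay below every Tet2 KO library (so did Asxl1 KO for 1.47% and Dnmt3a KO for 2.48% of all tested genes), while Asxl1 KO and Dnmt3a KO overlapped. In bulk RNA, fewer cells with a transcript and less of it per cell cannot be told apart.

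Klra3 was the second of the family in Rosa KO, and its knockout groups overlapped each other. It had 8.21, 5.03, 27.1 and 13.6 CPM in Asxl1 KO 1 to 4, with the high value in Asxl1 KO 3. It had 10.49, 22.49, 14.02 and 9.76 CPM in Dnmt3a KO 1 to 4 and 11.5, 12.8, 22.7 and 23.8 CPM in Tet2 KO 1 to 4. In Rosa KO 1 to 5 it had 34.8, 50.5, 60.7, 50.6 and 62.4 CPM, all above every knockout library. In each of the 3 comparisons with Rosa KO, Klra9 and Klra3 were the 2 of 5 members whose groups did not overlap; the ranges of the knockout lay wholly below Rosa KO for 1.4% of all tested genes in Asxl1 KO, 2.01% in Dnmt3a KO and 1.38% in Tet2 KO.

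The pseudogene Klra13-ps was scarcer and more variable. It had 0, 5.08, 0.90 and 1.04 CPM in Asxl1 KO 1 to 4, 0, 0.049, 2.45 and 0.80 CPM in Dnmt3a KO 1 to 4, and 3.18, 4.12, 1.70 and 2.44 CPM in Tet2 KO 1 to 4. In Rosa KO 1 to 5 it had 1.24, 9.96, 8.20, 5.32 and 20.8 CPM, so that Rosa KO 1, the only Rosa KO library of run 1, lay within the range of the knockouts.

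Klra8, the activating member, showed no such separation. It had 0.86, 2.59, 1.31 and 4.83 CPM in Asxl1 KO 1 to 4, 3.004, 2.234, 2.405 and 3.404 CPM in Dnmt3a KO 1 to 4, and 6.14, 6.83, 3.10 and 3.17 CPM in Tet2 KO 1 to 4. In Rosa KO 1 to 5 it had 2.58, 8.38, 5.37, 3.05 and 4.38 CPM, and all 4 groups overlapped.

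Klra1 was near the limit of detection. Its raw counts were 0, 1, 0 and 1 in Asxl1 KO 1 to 4, 5, 60, 12 and 0 in Dnmt3a KO 1 to 4, 11, 15, 2 and 5 in Tet2 KO 1 to 4, and 18, 0, 0, 53 and 21 in Rosa KO 1 to 5. The highest levels, 2.91 CPM in Dnmt3a KO 2 and 3.17 CPM in Rosa KO 5, came from single libraries.

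**Figure D2:**
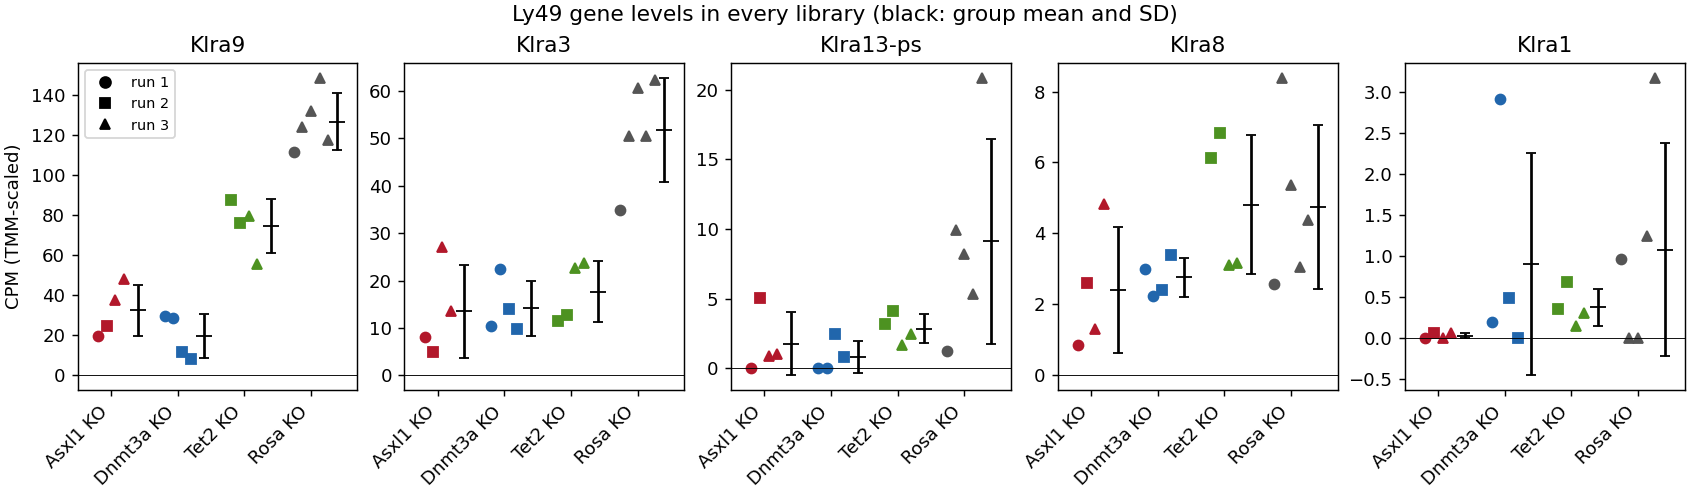
Level of each Ly49 gene in every library, in TMM-scaled CPM, by group; the marker shape gives the run, and the black bar beside each group gives its mean and SD (n = 4, 4, 4 and 5). The knockout libraries lie below all Rosa KO libraries for Klra9 and Klra3, with Tet2 KO between 55.6 and 87.5 CPM for Klra9, and the groups overlap for Klra13-ps, Klra8 and Klra1.

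Per kilobase of exon, which allows levels of different genes to be compared, Klra9 averaged 25.4 CPM per kb in Asxl1 KO, 15.4 in Dnmt3a KO, 58.4 in Tet2 KO and 99.2 in Rosa KO. Klra3 averaged 10.9, 11.5 and 14.3 CPM per kb in Asxl1 KO, Dnmt3a KO and Tet2 KO, and 41.8 in Rosa KO. Klra13-ps averaged 1.69, 0.79 and 2.74 CPM per kb in the same 3 knockouts and 8.75 in Rosa KO. Klra8 averaged 2.04, 2.34 and 4.08 CPM per kb in the knockouts and 4.03 in Rosa KO, and Klra1 stayed between 0.015 and 0.61 in all 4 groups. In Rosa KO the order was thus Klra9, Klra3, Klra13-ps, Klra8 and Klra1, and the ranges of Klra13-ps and Klra8 overlapped there.

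The first comparison, of Asxl1 KO with Rosa KO, asks which of these genes differ when Asxl1 is targeted. Klra9, Klra3 and Klra13-ps fell in Asxl1 KO, and Klra8 and Klra1 did not pass the test. In Asxl1 KO, Klra9 averaged 32.6 ± 12.8 CPM, and in Rosa KO 126.8 ± 14.4 CPM (SD, n = 4 and 5). Its log2 fold change was −1.83 ± 0.30 (SE), with an adjusted p of 0.00128 by edgeR's quasi-likelihood test. Klra3 averaged 13.5 ± 9.76 CPM in Asxl1 KO against 51.8 ± 11.0 CPM in Rosa KO, a log2 fold change of −1.75 ± 0.33 (adjusted p = 0.00432). These 3 of 5 members passed downwards, against 0.821% of all tested genes.

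Klra13-ps fell by 3.60 ± 0.93 on the log2 scale in Asxl1 KO (adjusted p = 0.0454), with 1.76 ± 2.26 CPM there and 9.11 ± 7.34 CPM in Rosa KO. That call did not hold without Asxl1 KO 1, 3 or 4 or without Rosa KO 1, 2, 3 or 5, where the log2 fold change lay between −3.74 and −3.20 and the adjusted p between 0.0554 and 0.153. In all it was lost under 13 of 19 alternatives. Klra8 had a log2 fold change of −1.04 ± 0.75 (adjusted p = 0.549) and Klra1 one of −5.08 ± 2.16 (adjusted p = 0.243), the Klra1 value resting on 2 reads in Asxl1 KO in all.

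Within run 3, with 2 Asxl1 KO and 4 Rosa KO libraries, the log2 fold change was −1.61 for Klra9 (adjusted p = 0.000265), −1.46 for Klra3 (adjusted p = 0.0159) and −3.50 for Klra13-ps (adjusted p = 0.0333). Within run 1, with 1 library of each, it was −2.52 for Klra9 (adjusted p = 0.0253), −2.09 for Klra3 (adjusted p = 0.166) and −7.66 for Klra13-ps (adjusted p = 0.554); there the spread came from the 2 Dnmt3a KO libraries. With no run term, the adjusted p of Klra3 was 0.0710.

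In Dnmt3a KO against Rosa KO, Klra9 fell and the other 4 genes did not pass. Klra9 averaged 19.7 ± 11.1 CPM in Dnmt3a KO and 126.8 ± 14.4 CPM in Rosa KO, a log2 fold change of −2.54 ± 0.36 (edgeR adjusted p = 0.000456). This 1 of 5 members passed downwards, against 0.18% of all tested genes. Only Rosa KO 1 shared a run with Dnmt3a KO, and within that run the log2 fold change was −1.93 (adjusted p = 0.0986). Of the markers of CD4 and regulatory T cells, 0 of 4 passed the test in Dnmt3a KO, and the 4 genes summed to 72.6 to 113 CPM in Dnmt3a KO against 15.1 to 45.9 CPM in Rosa KO, and the groups did not overlap. Most of this was Cd4, at 52.8 to 99.5 CPM in Dnmt3a KO against 2.87 to 28.1 CPM in Rosa KO (log2 fold change 2.93 ± 0.96, adjusted p = 0.398), while Foxp3, Cd40lg and Zbtb7b overlapped between these groups. The part of CD4 T cells in the Ly49 differences was not tested.

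Klra3 averaged 14.2 ± 5.84 CPM in Dnmt3a KO and 51.8 ± 11.0 CPM in Rosa KO, but its log2 fold change with run in the model was −0.94 ± 0.37 (adjusted p = 0.480). Its 95% interval ran from −1.71 to −0.17. Klra13-ps had a log2 fold change of −4.70 ± 1.06 (adjusted p = 0.0620), with 0.82 ± 1.14 CPM in Dnmt3a KO and 9.11 ± 7.34 CPM in Rosa KO; by DESeq2 its adjusted p was 0.000208 and with no filter on low counts it was 0.0208. Klra8 had −0.53 ± 0.90 (adjusted p = 0.937) and Klra1 −0.94 ± 2.33 (adjusted p = 0.961).

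In Tet2 KO against Rosa KO, 0 of 5 genes passed the edgeR test, against 0.483% of all tested genes that passed downwards. By edgeR, 2 of 5, Klra3 and Klra13-ps, had an unadjusted p under 0.05, as did 1692 of the 13881 tested genes. The same 2 passed by DESeq2, which called 407 genes in this comparison. Klra9 averaged 74.7 ± 13.6 CPM in Tet2 KO and 126.8 ± 14.4 CPM in Rosa KO, and its log2 fold change was −0.42 ± 0.33 (adjusted p = 0.688, 95% interval −1.10 to 0.26). Within run 3, with 2 Tet2 KO and 4 Rosa KO libraries, it was −0.95 (adjusted p = 0.0254). With only the 2 groups in the fit it was −0.96 (adjusted p = 0.0482).

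Klra3 averaged 17.7 ± 6.44 CPM in Tet2 KO and 51.8 ± 11.0 CPM in Rosa KO, a log2 fold change of −1.10 ± 0.36 (adjusted p = 0.144). It was −1.27 within run 3 (adjusted p = 0.0437) and −1.14 by DESeq2 (adjusted p = 0.0259). Klra13-ps had −2.98 ± 0.89 (adjusted p = 0.104; by DESeq2, 0.00420), and −2.41 within run 3 (adjusted p = 0.161). Klra8 had −0.19 ± 0.84 (adjusted p = 0.964) and Klra1 −1.45 ± 2.05 (adjusted p = 0.858).

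**Figure D3:**
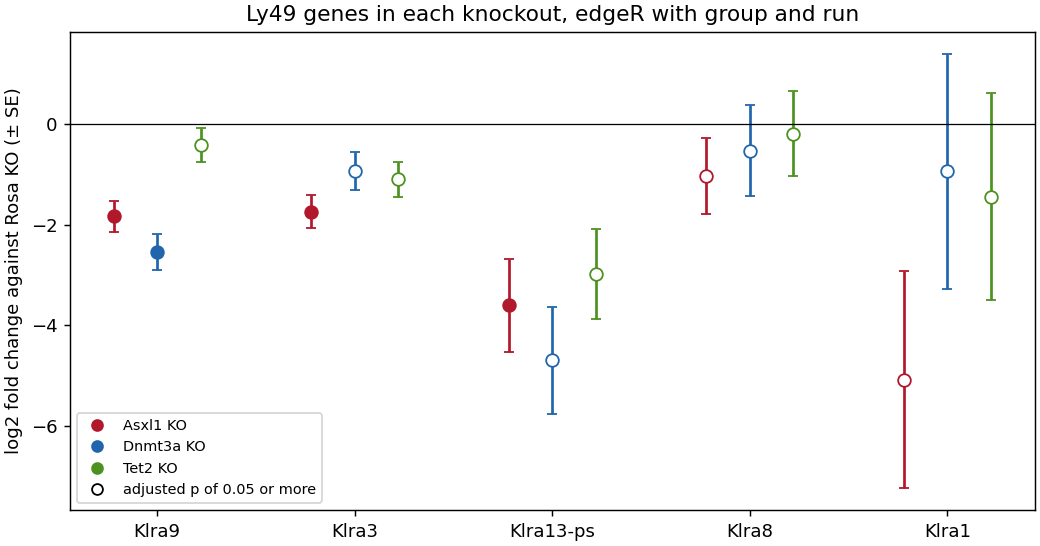
Log2 fold change of each Ly49 gene in Asxl1 KO, Dnmt3a KO and Tet2 KO against Rosa KO, with its SE, from edgeR with group and run as terms; filled points have an adjusted p under 0.05. Klra9 passed in Asxl1 KO (−1.83) and Dnmt3a KO (−2.54) but not in Tet2 KO (−0.42), and Klra8 and Klra1 passed in none of the 3 comparisons.

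The 3 comparisons share the Rosa KO libraries, so the knockouts were also compared with each other. Klra9 was lower in Asxl1 KO than in Tet2 KO, with a log2 fold change of −1.41 ± 0.32 (edgeR adjusted p = 0.0362), and lower in Dnmt3a KO than in Tet2 KO, with −2.12 ± 0.36 (adjusted p = 0.0169). It was 1 of 5 members to pass in each, against 0.115% and 0.072% of all tested genes that passed downwards. The first call did not hold without Asxl1 KO 1, 2 or 3 or Tet2 KO 1, 2 or 3, with adjusted p between 0.0598 and 0.123, and was −1.68 within run 2 (adjusted p = 0.214) and −0.66 within run 3 (adjusted p = 0.379). The second did not hold without Dnmt3a KO 3 or 4 or Tet2 KO 1 or 2, with adjusted p between 0.0680 and 0.272, and was −2.99 within run 2, where 2 libraries of each group lay (adjusted p = 0.000754).

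Between Asxl1 KO and Dnmt3a KO 0 of 5 members passed by edgeR, against 0.353% of all tested genes that passed in either direction. By edgeR, 1 of 5 had an unadjusted p under 0.05, as did 1525 of the 13881 tested genes. By DESeq2, 0 of 5 passed. Klra9 had a log2 fold change of 0.71 ± 0.35 (adjusted p = 0.458, 95% interval −0.01 to 1.42), and Klra3 one of −0.81 ± 0.37 (adjusted p = 0.418). The order of Klra9 was therefore Dnmt3a KO, Asxl1 KO, Tet2 KO and Rosa KO from low to high, in which neither the first pair of neighbours nor the last passed the test with run in the model. Klra3, Klra13-ps, Klra8 and Klra1 did not pass between any pair of knockouts.

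The total of the family and the share of Klra9 in it were described by group, with no test. Summed over the 14 Klra genes, the level was 69.6 ± 20.8 CPM in Asxl1 KO, 65.2 ± 17.7 CPM in Dnmt3a KO and 127.2 ± 16.3 CPM in Tet2 KO, against 223 ± 29.1 CPM in Rosa KO (SD, n = 4, 4, 4 and 5). No knockout library reached the lowest Rosa KO library at 175 CPM. Klra9 made up 47.0 ± 11.0% of the family's counts in Asxl1 KO, 28.3 ± 9.76% in Dnmt3a KO and 58.4 ± 4.52% in Tet2 KO, against 57.3 ± 5.34% in Rosa KO. All 4 Dnmt3a KO libraries, between 19.0 and 37.4%, lay below all Rosa KO libraries, the lowest of which was at 50.1%. Asxl1 KO, between 32.8 and 59.1%, and Tet2 KO, between 52.1 and 62.7%, overlapped Rosa KO, whose highest library was at 63.9%. Klra2 made up 32.1 ± 10.8% of the family's counts in Dnmt3a KO and 6.44 ± 3.22% in Rosa KO. With Klra2 left out, Klra9 was 29.7 of 50.6 CPM in Dnmt3a KO 1 and 117.7 of 224.7 CPM in Rosa KO 5. The Klra9 shares of Dnmt3a KO and Rosa KO then overlapped, through Dnmt3a KO 1 alone. In Dnmt3a KO 2, 3 and 4 Klra9 was 28.6 of 64.4, 11.9 of 35.7 and 8.34 of 28.2 CPM. These shares still lay below those of all Rosa KO libraries.

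The ratio of Klra9 to Klra3 counts varied among libraries of 1 group. It was 2.38, 4.95, 1.39 and 3.53 in Asxl1 KO 1 to 4, and 2.83, 1.27, 0.85 and 0.85 in Dnmt3a KO 1 to 4. It was 7.62, 5.96, 3.51 and 2.34 in Tet2 KO 1 to 4 and 3.21, 2.46, 2.18, 2.94 and 1.89 in Rosa KO 1 to 5. The highest ratios were in the Tet2 KO libraries of run 2 and the lowest in the Dnmt3a KO libraries of the same run.

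**Figure D4:**
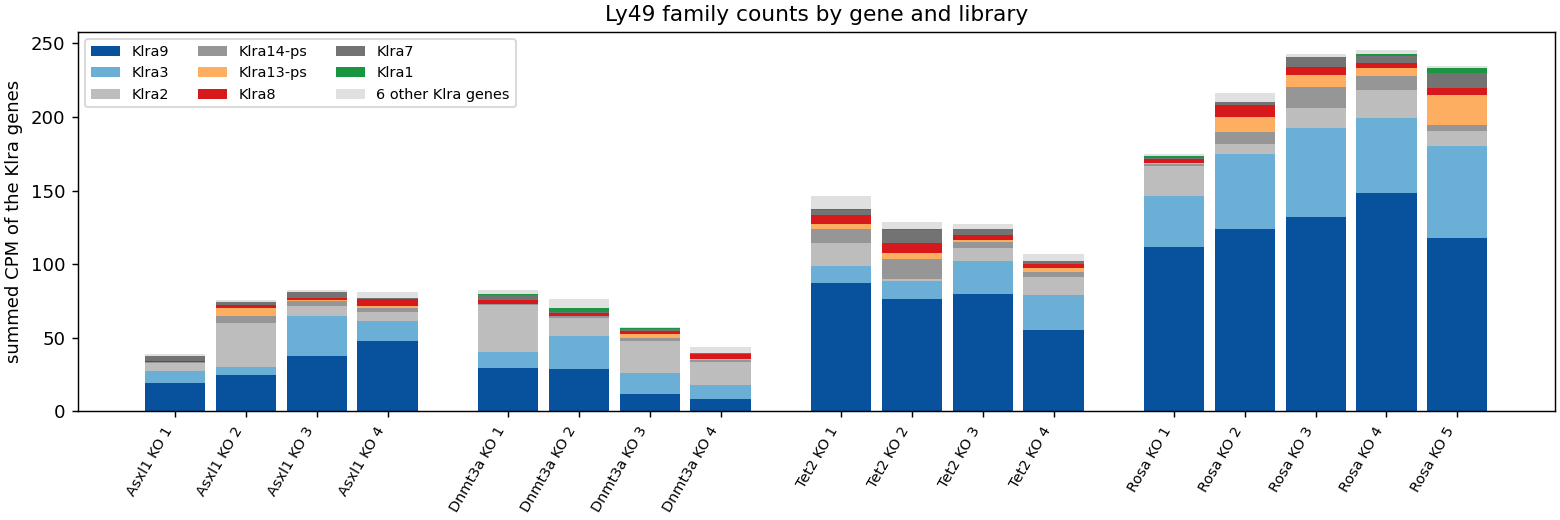
Summed CPM of the 14 Klra genes in each library, stacked by gene and ordered by group. Klra9 and Klra3 form most of each Rosa KO bar, the Rosa KO bars reach 175 to 245 CPM, and Klra2 takes its largest shares of the family's counts in Asxl1 KO 2 (40.2%) and Dnmt3a KO 1 (38.7%).

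The other 9 Klra genes gave 0 calls in the 6 comparisons by edgeR, with 0 to 2 genes at an unadjusted p under 0.05 in each. Over all 13881 tested genes, 778 to 2181 had an unadjusted p under 0.05 in a comparison. Klra2, which lies apart from the main cluster, averaged 12.1 ± 12.3 CPM in Asxl1 KO, 20.4 ± 8.65 CPM in Dnmt3a KO and 9.38 ± 6.29 CPM in Tet2 KO, against 13.9 ± 5.51 CPM in Rosa KO, and its log2 fold change in Dnmt3a KO against Rosa KO was 0.10 ± 0.72 (adjusted p = 0.986). Klra14-ps had a log2 fold change of −1.67 ± 0.76 in Asxl1 KO (adjusted p = 0.285) and Klra7, the gene of the inhibitory receptor Ly49G, one of −1.06 ± 1.06 (adjusted p = 0.693). Klra18 was at 0 in 4 of 5 Rosa KO libraries and had 1 read in Rosa KO 3. It averaged 2.08 ± 2.31 CPM in Dnmt3a KO (log2 fold change 7.38 ± 2.26, edgeR adjusted p = 0.269). In Tet2 KO it averaged 0.86 ± 0.66 CPM (log2 fold change 5.86 ± 1.88, edgeR adjusted p = 0.143). The lowest libraries of these groups held 2 reads, in Dnmt3a KO 1, and 1 read, in Tet2 KO 3. Klra18 and Klra22 had no entry in the RefSeq table of GRCm38.p6. Klra10, Klra5, Klra6, Klra17 and Klra22 each averaged under 2 CPM in every group.

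The other lectin receptors of the NK gene complex were read as a list of 19 genes, 18 of them tested. In Asxl1 KO 0 rose and 6 fell, with a median log2 fold change of −0.99 against 0.0004 over all tested genes. Over all tested genes, 0.814% rose and 0.821% fell in Asxl1 KO, 0.036% and 0.18% in Dnmt3a KO, and 0.987% and 0.483% in Tet2 KO. In Dnmt3a KO 0 of the list rose and 6 fell (median −0.85 against −0.003), and in Tet2 KO 1 rose and 5 fell (median −0.19 against −0.02). Klrb1c, the gene of the NK1.1 antigen, averaged 32.7 ± 10.1 CPM in Asxl1 KO, 16.6 ± 12.4 CPM in Dnmt3a KO and 28.1 ± 7.08 CPM in Tet2 KO, against 221 ± 63.8 CPM in Rosa KO, and fell in all 3 (log2 fold changes −2.62 ± 0.38, −3.65 ± 0.46 and −2.38 ± 0.43; edgeR adjusted p = 0.000677, 0.000421 and 0.00588).

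Klre1, a lectin-like receptor of NK cells, fell by 1.60 ± 0.21 on the log2 scale in Asxl1 KO (edgeR adjusted p = 9.49e-05), fell by 1.497 ± 0.25 in Dnmt3a KO (0.00391) and fell by 0.97 ± 0.24 in Tet2 KO (0.0344). Klrc2, the gene of an activating NKG2 receptor, fell by 1.89 ± 0.26 in Asxl1 KO, 1.97 ± 0.30 in Dnmt3a KO and 1.33 ± 0.27 in Tet2 KO, where its mean CPM was nonetheless 314 ± 318 against 286 ± 96.2 in Rosa KO. Klrg1, a receptor of effector T cells, fell by 1.69 ± 0.28 in Asxl1 KO, by 1.77 ± 0.33 in Dnmt3a KO and by 1.27 ± 0.30 in Tet2 KO. Klrb1f rose in Tet2 KO by 2.00 ± 0.44 (0.0214), with 53.5 ± 24.3 CPM in Tet2 KO against 9.76 ± 7.14 CPM in Rosa KO. Klrd1, which encodes the partner of the NKG2 receptors, did not pass in any of the 3 (−0.55 ± 0.19, −0.57 ± 0.23 and 0.17 ± 0.20 in Asxl1 KO, Dnmt3a KO and Tet2 KO).

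**Figure D5:**
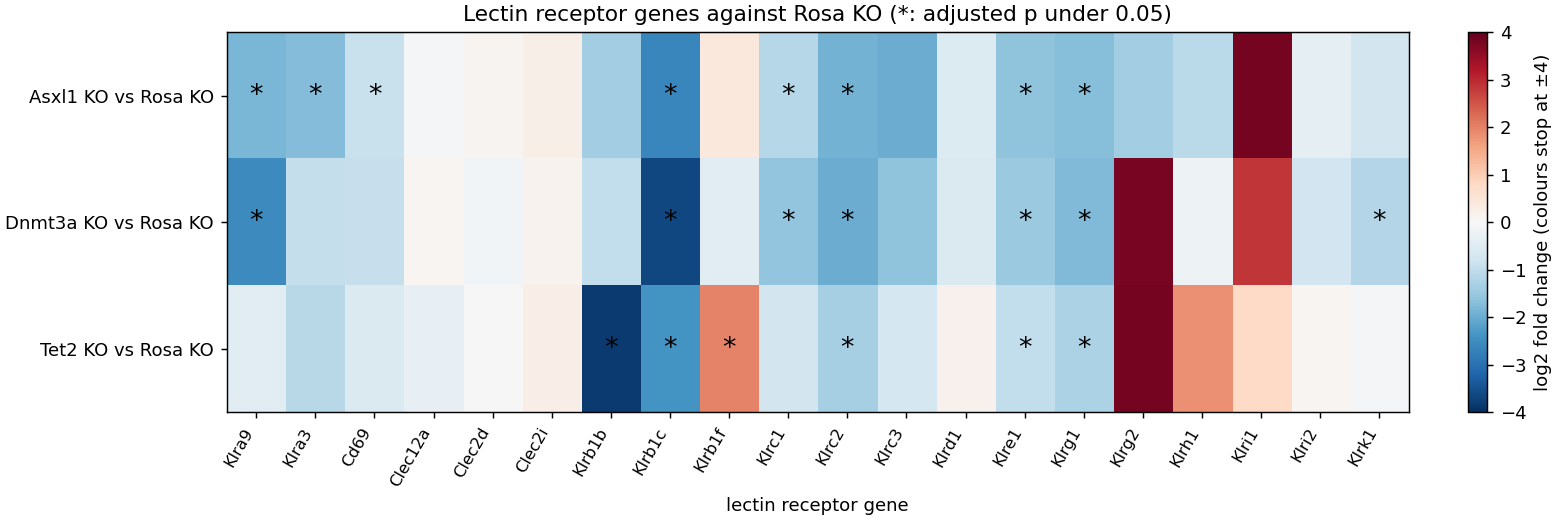
Log2 fold change of Klra9, Klra3 and the 18 tested lectin receptor genes of the NK gene complex in each knockout against Rosa KO; asterisks mark an adjusted p under 0.05 and colours stop at 4 in either direction. Klrb1c, Klrc2, Klre1 and Klrg1 carry an asterisk in all 3 rows, and Klra9 in the Asxl1 KO and Dnmt3a KO rows.

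Among 12 signalling partners of these receptors, 3 rose and 0 fell in Asxl1 KO (median log2 fold change 0.10), and 0 passed in Dnmt3a KO (median 0.15) or Tet2 KO (median −0.10). The 3 were the T cell receptor adaptor gene Lat (1.33 ± 0.18, edgeR adjusted p = 8.63e-05) and the kinase genes Fyn (0.61 ± 0.14, 0.0222) and Zap70 (0.85 ± 0.21, 0.0424). Over all tested genes, 0.814% rose and 0.821% fell in Asxl1 KO. Ptpn6, the phosphatase gene, averaged 151 ± 34.7 CPM in Asxl1 KO, 165 ± 13.4 CPM in Dnmt3a KO and 197 ± 71.9 CPM in Tet2 KO, against 203 ± 59.6 CPM in Rosa KO. Tyrobp, the adaptor gene of activating receptors, averaged 61.1 ± 9.04, 80.2 ± 27.7 and 59.6 ± 35.8 CPM in Asxl1 KO, Dnmt3a KO and Tet2 KO, against 79.4 ± 22.8 CPM in Rosa KO; neither gene passed in any of the 3.

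On the ligand side, 1 of 13 genes of class I molecules and their assembly rose in Asxl1 KO (median 0.35) and 0 passed in Dnmt3a KO (median −0.03) or Tet2 KO (median 0.09). The gene was Tapbp, which encodes a chaperone of peptide loading (0.81 ± 0.16, edgeR adjusted p = 0.00628). Of all tested genes, 0.814% rose in Asxl1 KO. H2-K1 and H2-D1, the genes of the classical class I heavy chains, had log2 fold changes between −0.11 and 0.24 in the 3 comparisons and did not pass.

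Of 17 transcription factor genes linked to Ly49 or NK-type receptor expression, 3 rose and 3 fell in Asxl1 KO (median 0.18), 1 rose and 1 fell in Dnmt3a KO (median −0.39), and 1 rose and 2 fell in Tet2 KO (median −0.23). Over all tested genes, 0.814% rose and 0.821% fell in Asxl1 KO, 0.036% and 0.18% in Dnmt3a KO, and 0.987% and 0.483% in Tet2 KO. Tcf7, the gene of TCF-1, which is needed for normal Ly49 acquisition in mouse NK cells, rose in all 3, by 1.94 ± 0.26, 1.79 ± 0.31 and 1.95 ± 0.27 on the log2 scale in Asxl1 KO, Dnmt3a KO and Tet2 KO. Zeb2, a factor of terminal effector and NK cell maturation, fell in the same 3, by 2.27 ± 0.21, 1.69 ± 0.23 and 1.67 ± 0.22. Eomes, a T-box factor of NK and memory CD8 T cells, rose in Asxl1 KO by 1.15 ± 0.19 (edgeR adjusted p = 0.00128). Tox rose in Asxl1 KO (0.56 ± 0.14) and fell in Tet2 KO (−0.65 ± 0.15).

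In a list of 16 genes reported in CD8 T cells that bear Ly49 receptors, 2 rose and 1 fell in Asxl1 KO (median 0.27), 0 rose and 2 fell in Dnmt3a KO (median −0.12), and 2 rose and 1 fell in Tet2 KO (median 0.34). The shares of all tested genes that rose and fell are those given for the transcription factors. In Tet2 KO the costimulator gene Icos rose by 1.08 ± 0.18. Cxcr3, a chemokine receptor gene, rose by 1.40 ± 0.17 in Asxl1 KO and by 1.23 ± 0.18 in Tet2 KO. Gzmb, the granzyme B gene, fell by 0.61 ± 0.13 in Asxl1 KO and by 0.87 ± 0.15 in Dnmt3a KO, and Fasl fell by 1.15 ± 0.20 in Dnmt3a KO and by 1.27 ± 0.19 in Tet2 KO.

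NK cells also carry Ly49 receptors, so NK markers were read beside these results. The summed level of 14 NK markers was 237 to 334 CPM in Asxl1 KO, 219 to 365 CPM in Dnmt3a KO and 340.0 to 397 CPM in Tet2 KO, against 518 to 768 CPM in Rosa KO. Of the 14, 6 are lectin receptor genes, Klrb1c and Klre1 among them; without these the sum of the other 8 was 109 to 216 CPM in Asxl1 KO, 120.2 to 265 CPM in Dnmt3a KO and 76.4 to 207 CPM in Tet2 KO, against 130.7 to 270.2 CPM in Rosa KO, so the groups overlapped. Ncr1, the defining NK receptor gene, averaged 0.41 CPM in Asxl1 KO, 4.27 CPM in Dnmt3a KO and 1.10 CPM in Tet2 KO, against 1.85 CPM in Rosa KO, and was at 0 in 2 Asxl1 KO libraries and 1 Rosa KO library. Of the 8, Tyrobp and Fcer1g were the highest in Rosa KO, at 79.4 and 46.9 CPM on average. Both were lowest in Tet2 KO 2, at 7.82 and 4.70 CPM. The 11 myeloid and dendritic cell markers also had their lowest sum there, 317 CPM. The sum of the 8 therefore does not measure NK cells alone, and its overlap does not show equal NK content. Cma1, another of the 8, averaged 2.71, 1.07 and 1.06 CPM in Asxl1 KO, Dnmt3a KO and Tet2 KO, against 18.0 CPM in Rosa KO. Its highest knockout library was at 7.41 CPM, in Asxl1 KO, while Rosa KO lay between 10.95 and 29.1 CPM. Cma1 did not pass in any of the 3 comparisons (edgeR adjusted p = 0.128, 0.346 and 0.105). Of the 14, 0 rose and 2 fell in Asxl1 KO, 0 and 2 in Dnmt3a KO, and 1 and 3 in Tet2 KO, each a Klr gene. For all tested genes, the shares that rose and fell are those given for the transcription factors. For natural killer T (NKT) cells, the markers Klrb1c, Zbtb16 and Il4 summed to 109 to 266 CPM in Rosa KO. In the knockouts they summed to at most 39.9 CPM, and most of each sum was Klrb1c. Zbtb16 averaged 0.28 to 1.41 CPM and Il4 0 to 0.54 CPM over the groups. Whether NK or NKT cells take part in the differences was not tested.

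B cell markers varied widely within groups, with 12 genes that summed to 622 to 1303 CPM in Asxl1 KO, 658 to 2326 CPM in Dnmt3a KO and 149 to 2644 CPM in Tet2 KO, against 524 to 2997 CPM in Rosa KO. With the mean of these markers as a covariate, Klra9 and Klra3 kept their calls in Asxl1 KO and Klra9 in Dnmt3a KO, while Klra13-ps lost its call in Asxl1 KO (adjusted p = 0.0599). In run 3, Asxl1 KO 3 and 4 summed to 649.8 and 622 CPM against 2664 to 2997 CPM in the Rosa KO libraries. Without both Asxl1 KO 3 and 4, the lowest of their group, Klra9 and Klra3 also passed in Asxl1 KO, and Klra13-ps did not (adjusted p = 0.287). Asxl1 KO 1 and 2 still summed to 1011 and 1303 CPM, below Rosa KO 2 to 5. Only Rosa KO 1, at 524 CPM, shared a run with either. That fit thus neither balanced B cell content nor set it apart from run. Sums of 11 myeloid and dendritic cell markers overlapped between all groups, at 673 to 1039 CPM in Asxl1 KO, 601 to 1212 CPM in Dnmt3a KO and 317 to 1121 CPM in Tet2 KO, against 610 to 1388 CPM in Rosa KO.

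The genes most like each member in their pattern over the 17 libraries were ranked by Pearson's r of log2 CPM among 13867 tested genes that are not Klra genes; these libraries share their depth, runs and groups, so the values are a description. Klra9 was most like Kcnj8 (r = 0.92), Anxa1 (0.87), Klrb1c (0.86), P2ry10 (0.83) and Gzmb (0.82). Klra3 was most like Timmdc1 (0.88), Btg1 (0.85), Ptp4a1 (0.84), Dnajb9 (0.83) and Junb (0.83). Klra13-ps was most like Rbm39 (0.93), Pisd-ps1 (0.91), Prpf39 (0.90), Ccdc146 (0.90) and Slc15a2 (0.89). The top gene was Gm7854 for Klra8 (0.83) and Sprtn for Klra1 (0.80). Among the members, r was 0.73 for Klra9 and Klra3, which share 13.1% of the Klra9 windows, and between 0.08 and 0.63 for the other pairs. No gene stood in the top 5 of more than 1 member.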

How the data were processed

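RNA was isolated with Direct-zol and made into libraries with a TruSeq stranded total RNA kit, per the labels' protocols; the molecule label reads genomic DNA, but the series is RNA-seq. The authors deposited raw counts per gene, 1 table per library. Per the submitters' processing notes, STAR 2.5.3a, DESeq2 1.26.0 and the build mm10 were used, in roles not stated; how counting treated annotation and strand is not given in the sources used here. Counts were tested in R 4.3.3 with edgeR 4.0.16 (TMM, filterByExpr with minimum count 10 and total 15, robust quasi-likelihood F test, group and run as terms, all 17 libraries, 11 residual degrees of freedom, Benjamini-Hochberg over 13881 genes, adjusted p under 0.05). SE is the log2 fold change over the root of F; log2 CPM has a prior count of 2. Run comes from the library numbers. Levels per kilobase use GENCODE M21 exons. Alternatives were DESeq2 1.42.0, other scaling, filters, terms and libraries, and the edgeR step was tested on simulated data. Over 28 pairs of libraries of 1 group, a chi-square of counts per degree of freedom was at least 19.7, so no pair agreed within counting noise as 1 library deposited more than once would; this does not show separate animals or cultures. The members and lists were chosen with earlier results of these data known. All 5 members are named in every comparison, and of each list at most 4 passing genes by adjusted p; Klre1 in Tet2 KO, Klrd1, Ptpn6, Tyrobp, H2-K1, H2-D1, Cma1, Ncr1, Klra2 and other genes named outside this rule were chosen by role or after their values were seen. Ly49 genes without a row in the tables were not analysed here.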

Additional observations from a re-analysis of the deposited data

Results flagged for a closer look

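Klra1 stood at 2.91 CPM (60 reads) in Dnmt3a KO 2, apart from the other Dnmt3a KO libraries at 0.19, 0.49 and 0 CPM in Dnmt3a KO 1, 3 and 4. The gap to the nearest library, relative to the range of the group, was above Dixon's 95% limit. Of 20 combinations of a gene and a group, 1 was flagged, and chance flags about 1 in 20.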

How the results depend on the processing

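Klra9 kept its call in Asxl1 KO against Rosa KO under the alternatives, with log2 fold changes between −2.51 and −1.59, leaving aside the fit within run 1, where each group has 1 library and the p-value bears on no spread of its own. Against 3 genes in Asxl1 KO, 1 was called with no run term and 1 within run 1 (2 to 3 when a library was left out). Klra13-ps lost its call there under 13 of 19 alternatives: those 2, 7 with a library left out, the replicate block (adjusted p = 0.197), the B cell covariate (0.0599), only the 2 groups in the fit (0.0650) and without both Asxl1 KO 3 and 4 (0.287). Against 1 gene in Dnmt3a KO, 2 were called with no filter on low counts, 2 by DESeq2, and 0 within run 1 (1 to 1 when a library was left out). Against 0 in Tet2 KO, 1 was called with only the 2 groups in the fit, 2 within run 3 and 2 by DESeq2. For Asxl1 KO against Tet2 KO (1), 0 were called with no run term, with only the 2 groups, within run 2 and within run 3, and 0 to 1 when a library was left out. For Dnmt3a KO against Tet2 KO (1), 0 were called with no run term and 0 to 1 when a library was left out. Asxl1 KO against Dnmt3a KO gave 0 calls throughout. The cause of these losses was not tested.

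Replicate numbers are not described as a pairing, and 2 of 24 same-numbered pairs had deviations correlated above 0.1 (median 0.04). These correlations cannot exclude a pairing, since pairs of the same run also had a median of only 0.06. With a replicate block added, calls were 0 in Dnmt3a KO against Rosa KO, 0 in Asxl1 KO against Tet2 KO and 0 in Dnmt3a KO against Tet2 KO; over all genes the block left 51 calls against 227 in Asxl1 KO, 0 against 30 in Dnmt3a KO and 52 against 204 in Tet2 KO. By DESeq2 these were 677, 150 and 407, and with no run term 23, 19 and 23.

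Log2 fold changes that changed sign belonged to values that did not pass. For Klra8 in Dnmt3a KO against Rosa KO they were 0.19 with the replicate block, 0.0266 with only the 2 groups and 0.0269 within run 1. For Klra1 there they were 0.68 with only the 2 groups and 0.68 within run 1. For Klra8 in Tet2 KO they were 0.0204 with no run term and −0.34 to 0.0783 when a library was left out (above 0 without Tet2 KO 3, Tet2 KO 4 or Rosa KO 2), and for Klra1 0.54 with the replicate block. For Asxl1 KO against Dnmt3a KO within run 1 they were −0.59 for Klra9 and −2.25 for Klra13-ps, and for Asxl1 KO against Tet2 KO within run 2 0.52 for Klra13-ps. For Dnmt3a KO against Tet2 KO they were −0.31 (no run term), −0.19 (replicate block) and −0.0026 (within run 2) for Klra3, 0.41 (replicate block) and −0.49 to 0.0316 (a library left out; above 0 without Dnmt3a KO 3) for Klra8, and −2.29 (replicate block), −1.03 (within run 2) and −0.63 to 1.74 (a library left out; below 0 without Dnmt3a KO 2) for Klra1.

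Leaving out both Asxl1 KO 3 and 4 was chosen after seeing the data. Klra1 had 204 reads over the 17 libraries and Klra13-ps 1209, so counting error is larger for them than for Klra9 with 25147.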
